A study of Mus musculus with 6 samples.

Results

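Phyh, Acsl3, Cds1, Abcd2 and Acot3 encode enzymes and a transporter of fatty acid or phospholipid metabolism, in peroxisomes, at the endoplasmic reticulum or at lipid droplets. These 5 genes were found by symbol in the authors' deposited table of selected probe sets, here called the significance table. They have 6 of its 1061 probe sets, where 842 genes are named by a single symbol, and the array has 45037 probe sets besides its controls. That table had been filtered at an unadjusted p of 0.05 and a fold of 1.25 on the same comparison, so its values chose the members, and their differences are given as descriptions without a test. It lists 0.924% of all probe sets as lower in the double mutants and 1.43% as higher.

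The tissue was mesenchyme of the maxillary arch at embryonic day 10.5, taken by laser from frozen head sections over the territory where Lhx6 and Lhx8 are normally active. There were 3 arrays of female Lhx6-/-; Lhx8-/- double-mutant embryos, numbered 1, 2 and 4, and 3 arrays of female wild-type embryos, numbered 1, 4 and 5. All embryos had a mixed C57BL/6J, 129 and CD-1 background and received no treatment. The comparison asks which genes depend on the 2 LIM-homeodomain factors in the tissue that forms the upper jaw and palate. The genotype label gives both copies of each gene as mutant and names no tissue-specific driver, and the part of either gene that was removed was not given in the sources used here.

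Peroxisomes shorten fatty acids that mitochondria do not take, among them very long chains and methyl-branched chains such as phytanic acid. A fatty acid is first joined to coenzyme A, is carried across the peroxisomal membrane by a transporter of the ABCD family, and is then oxidised, while thioesterases release the free acid again. The same activated acids also feed phospholipid synthesis at the endoplasmic reticulum, where CDP-diacylglycerol is the precursor of phosphatidylinositol and related lipids.

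Upstream sequence was compared first, because 4 of the 5 genes were lower in the double mutants. RefSeq start sites of build GRCm38.p6 were found for 4 of the 5 genes, all but Abcd2, and the 250 bases before each start were read. The windows of Phyh and Cds1, the genes whose probe sets met the submitters' criteria described below, are printed 5′ to 3′ on the plus strand. Capitals mark ATTA or its complement TAAT, the homeodomain core, in Phyh, and the GC box GGGCGG or its complement in Cds1.
Phyh chr2:4918746-4918995: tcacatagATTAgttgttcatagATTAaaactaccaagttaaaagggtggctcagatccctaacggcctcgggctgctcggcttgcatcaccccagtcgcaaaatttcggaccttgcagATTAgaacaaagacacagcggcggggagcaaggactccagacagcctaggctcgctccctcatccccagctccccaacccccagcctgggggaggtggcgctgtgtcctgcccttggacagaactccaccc
Cds1 chr5:101764880-101765129: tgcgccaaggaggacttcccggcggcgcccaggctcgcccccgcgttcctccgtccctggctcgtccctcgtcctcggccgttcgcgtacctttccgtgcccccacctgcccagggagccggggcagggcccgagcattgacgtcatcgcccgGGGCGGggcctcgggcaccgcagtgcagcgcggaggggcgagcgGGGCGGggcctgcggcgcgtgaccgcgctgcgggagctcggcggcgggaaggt
The Phyh window had 3 matches to ATTA and no GC box, with 56.4% G and C and 9 CpG pairs. The Cds1 window had no ATTA and 2 GC boxes, with 77.6% G and C and 37 CpG pairs, and the Acsl3 window was of the same kind, at 75.6% G and C with 5 GC boxes. Acot3, the gene that was higher, had windows of 45.2% and 46.0% G and C at its 2 listed starts, with 1 ATTA in each. ATTA was present in 54.9% of all 32851 windows of this length and GGGCGG in 32.7%, on either strand, and the median window had 52.4% G and C and 6 CpG pairs. The longer LIM-homeodomain motif TAATTA, which contains ATTA and was present in 4.84% of all windows, and the PPAR-RXR repeat, AGGTCA and AGGTCA with 1 base between, present in 0.0335%, were not in the windows of these 4 genes. CCAAT, present in 33.8%, was found once in the Acsl3 window and at 2 places in each Acot3 window. The windows of Phyh, Acsl3 and Cds1, the lower genes for which a start was found, differed among themselves in base composition. No motif of the 5 searched was in all of them. Sequence beyond these 250 bases was not read, and a link of any motif to the differences was not tested.

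Lhx8 checks the genotype labels in part. In the significance table its intensity was 5177, 2711 and 3177 on double mutants 1, 2 and 4, against 8976, 9493 and 8628 on the wild-type arrays. In the value table, the deposited intensities of all probe sets, the array labelled double mutant 1 lay inside the wild-type range of Lhx8. That array also had a 3' to 5' signal ratio of 24.8 for Actb, where the other 5 arrays had 1.62 to 1.85, and of 17.8 for Gapdh, where they had 1.36 to 1.6. In log2 intensity it correlated with the other arrays at 0.887 to 0.91, where those 5 correlated with each other at 0.979 to 0.99. Log2 differences below are therefore also given without the array labelled double mutant 1. No probe set named Lhx6 was found, and a probe outside the removed sequence would not check the genotype. Array medians ran from 19 to 20.5 in the value table, and the number of arrays limits the precision of every value. Of 15 markers of maxillary mesenchyme, 3 are listed, Lhx8, Msx1 and Barx1, all lower, where 0.924% of all probe sets are listed as lower. Lhx8 is itself mutated in these embryos, so its lower signal is not informative about the tissue. The marker counts here and below are of genes, which can have several probe sets, and the shares are of probe sets.

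Phyh, the gene for the peroxisomal enzyme that starts alpha-oxidation of phytanic acid and is deficient in human Refsum disease, was the brightest member. Its probe set read 513.6, 614 and 681.5 on double mutants 1, 2 and 4 in the significance table, against 1237, 1422 and 1325 on wild types 4, 5 and the wild-type column whose number matches no sample title. All 3 double-mutant values lay below all 3 wild-type values, with a gap of 555.7 between the groups. The means were 603 ± 84.5 in the double mutants and 1328 ± 92.2 in wild type (SD, n = 3), so the double mutants kept 45.4% of the wild-type level. In the authors' deposited table the probe set is 2.21-fold lower with an unadjusted p of 0.000982. That p ranks 12th among the 416 probe sets listed as lower, and the fold ranks 50th among the 148 lower ones that met the submitters' criteria. Those asked for a mean intensity over 100 in at least 1 group, a fold over 1.5 and a p under 0.05 without adjustment.

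The value table gave Phyh on another scale, again with every double-mutant array below every wild-type array. Its intensities were 136.8, 151.8 and 181.2 on double mutants 1, 2 and 4, against 318.5, 319.1 and 315.7 on wild types 1, 4 and 5. The double mutants were spread, with an SD of 22.6, and the wild-type arrays were close to each other, with an SD of 1.82. Among all probe sets of an array, Phyh stood at the 75.0 to 77.8 percentile in the double mutants and at the 83.6 to 83.9 percentile in wild type. The log2 difference was -0.96 in this table and -1.15 in the significance table. Without the array labelled double mutant 1, which had the lowest Phyh value in both tables, the differences were -0.88 and -1.04. In bulk tissue such as this, fewer cells of a type and less RNA per cell cannot be told apart.

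**Figure D1:**
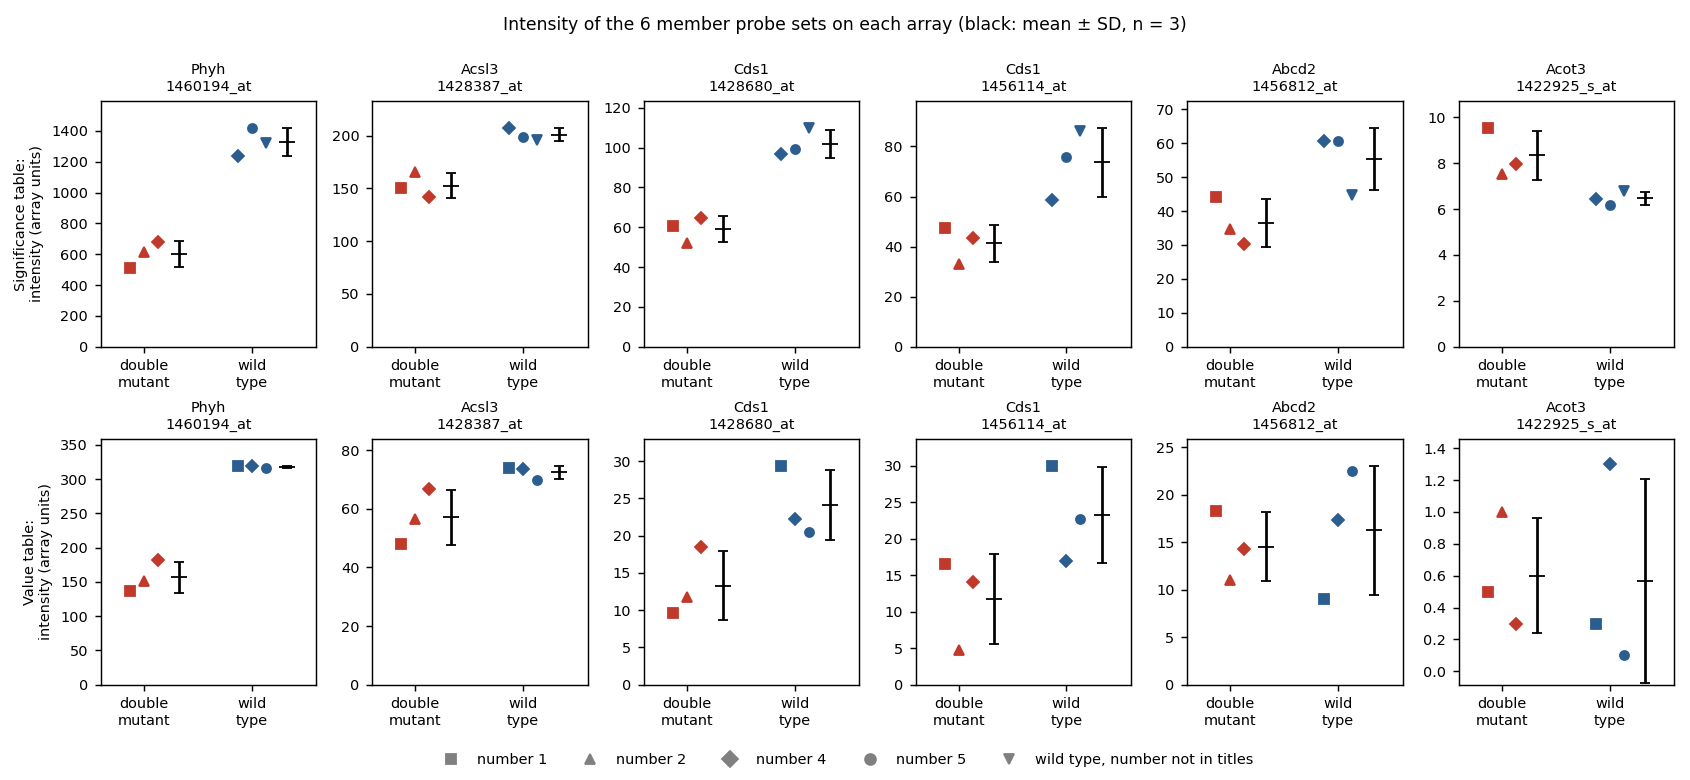
Intensity in array units of the 6 probe sets of the 5 genes, with double-mutant arrays in red on the left and wild-type arrays in blue on the right of each panel, from the significance table (top) and the value table (bottom). Black marks are means ± SD (n = 3). For Phyh the groups are far apart in both tables, while for Abcd2 and Acot3 they overlap in the value table.

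Acsl3, which encodes a long-chain acyl-CoA synthetase of the endoplasmic reticulum and lipid droplets, showed a smaller difference with little spread. The significance table had 150.5, 165.3 and 142 on double mutants 1, 2 and 4, against 207.6, 199.1 and 195.7 on wild types 4, 5 and the unnumbered column. The groups did not overlap, and the double-mutant mean of 152.6 ± 11.8 was 76.0% of the wild-type mean of 200.8 ± 6.1 (SD, n = 3). In the authors' deposited table this is 1.32-fold lower with an unadjusted p of 0.00439, so Acsl3 passed the intensity criterion and missed the fold of 1.5. The value table gave 48.1, 56.5 and 66.8 in the double mutants, against 74, 73.5 and 69.9 in wild type. The groups were again separate there, but by 3.1 units, less than the SD of 9.37 among the double mutants. The log2 difference was -0.40 in the significance table and -0.28 in the value table, and without the array labelled double mutant 1 it was -0.39 and -0.19.

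Cds1, which encodes an enzyme that makes CDP-diacylglycerol from phosphatidic acid, was the single member with 2 probe sets. Probe set 1428680_at read 60.7, 51.9 and 64.5 on double mutants 1, 2 and 4 in the significance table, against 96.6, 99.3 and 110.0 on the wild-type columns. Probe set 1456114_at read 47.6, 33.2 and 43.2 in the double mutants, against 58.8, 75.7 and 86.4 in wild type. Both were lower on every double-mutant array, and double mutant 2 was the lowest of the 6 for both. The log2 differences were -0.79 for 1428680_at and -0.83 for 1456114_at, and -0.82 and -0.94 without the array labelled double mutant 1. The file aligns the pair to chromosome 5, at 102251262 to 102252877 and at 102194239 to 102251351 on the plus strand, with 90 bases in common. The genome build of these alignments was not given in the sources used here. They report on 1 gene in the same embryos and are not replicates.

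Cds1 lay at the intensity threshold. In the authors' deposited table, probe set 1428680_at is 1.73-fold lower with an unadjusted p of 0.00192, and 1456114_at is 1.78-fold lower with an unadjusted p of 0.021. The double-mutant mean of 1428680_at was 59 ± 6.5 and its wild-type mean 101.9 ± 7.1 (SD, n = 3), so it met the criterion of 100 by a small margin. The double-mutant mean of 1456114_at was 41.4 ± 7.4 and its wild-type mean 73.6 ± 13.9 (SD, n = 3), so it did not. The log2 differences in the value table were -0.46 for 1428680_at and -0.51 for 1456114_at, and -0.37 and -0.64 without the array labelled double mutant 1. Leaving out the unnumbered wild-type column took 1428680_at out of the probe sets meeting the criteria. In the value table, probe set 1428680_at read 9.6, 11.7 and 18.5 in the double mutants, against 29.4, 22.3 and 20.5 in wild type, close to the array medians. There the gap between the groups was 2.0 units for 1428680_at and 0.5 units for 1456114_at, both smaller than the SD within either group.

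Abcd2, which encodes a peroxisomal membrane transporter of very long-chain acyl-CoA related to the adrenoleukodystrophy protein, was dim, and the tables differed. The significance table had 44.2, 34.7 and 30.3 on double mutants 1, 2 and 4, against 60.7, 60.8 and 44.9 on wild types 4, 5 and the unnumbered column. The groups were separated there by 0.682 units, the distance between the array labelled double mutant 1 and the unnumbered wild-type column. In the authors' deposited table Abcd2 is 1.53-fold lower with an unadjusted p of 0.0472, the member nearest to the p of 0.05 at which the table was filtered. The value table gave 18.3, 11 and 14.3 in the double mutants, against 9, 17.3 and 22.5 in wild type, and the groups overlapped. The log2 difference was -0.61 in the significance table and -0.06 in the value table, where it changed sign when double mutant 2 or wild type 5 was left out. Without the array labelled double mutant 1 the 2 values were -0.76 and -0.15. The file aligns the probe set to chromosome 15 from 90976301 to 90976901 on the minus strand.

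Acot3, which encodes a peroxisomal acyl-CoA thioesterase, was the one member listed as higher and was at the bottom of the intensity scale. The significance table had 9.55, 7.54 and 7.96 on double mutants 1, 2 and 4, against 6.44, 6.18 and 6.77 on the wild-type columns, and by mean intensity the probe set, 1422925_s_at, was the 16th dimmest of the 1061. The array labelled double mutant 1 had the highest value. In the authors' deposited table Acot3 is 1.29-fold higher with an unadjusted p of 0.0301, close to the fold of 1.25 at which the table was filtered. The value table gave 0.5, 1 and 0.3 in the double mutants, against 0.3, 1.3 and 0.1 in wild type, between the 0.6 and 14.0 percentile of all probe sets. These values overlapped and gave no direction, and no level of Acot3 could be told from the floor of that table. Without the array labelled double mutant 1 the log2 difference in the significance table was 0.26, against 0.36 with all arrays. By the array maker's naming, the ending _s_at marks probes that match more than 1 transcript, and RefSeq places Acot3 in a run of 6 neighbouring thioesterase genes, Acot2, Acot1, Acot4, Acot3, Acot5 and Acot6, so the signal is not certain to be of Acot3 alone.

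**Figure D2:**
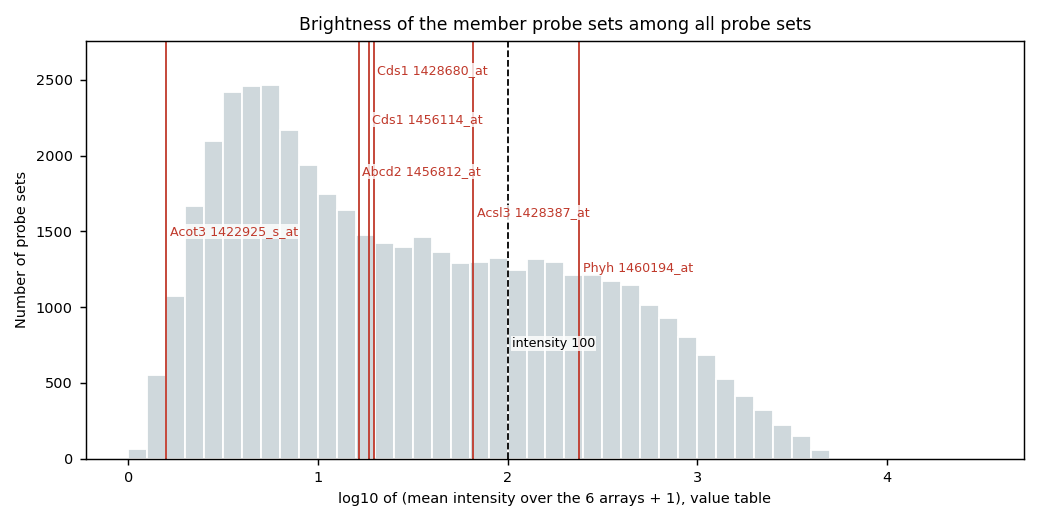
Number of probe sets (bars) by log10 of their mean intensity over the 6 arrays plus 1 in the value table, with the 6 member probe sets as red lines and an intensity of 100 as a dashed line. Phyh lies above 100, Acsl3 below it at a mean of 64.8, both Cds1 probe sets and Abcd2 between 15.4 and 18.7, and Acot3 at 0.583.

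As a group, 5 of the 6 probe sets, from 4 of the 5 genes, were lower in the double mutants. In the significance table the 2 groups of columns did not overlap for any of the 6, but the same held for all 1061 listed probe sets, 39.2% of them lower and 60.8% higher, so it follows from how the table was made. The median log2 difference of the 6 was -0.70, against 0.38 over all listed probe sets and -0.68 over the 416 listed as lower, and it was -0.79 against 0.35 over all listed without the array labelled double mutant 1. Direction went with brightness across that table, since 54.0% of the 461 listed probe sets with a mean over 100 in either group were lower, and 27.8% of the 600 dimmer ones. Of the members, 3 of the 3 probe sets over 100 were lower, as were 2 of the 3 dimmer ones. The probe sets that met the submitters' criteria were those of Phyh and Cds1 1428680_at, 2 of 6, where 24.6% of the listed probe sets met them, 13.9% in the lower direction.

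In the value table, 4 of the 6 probe sets, those of Phyh, Acsl3 and Cds1, had all double-mutant arrays below all wild-type arrays, where 4.06% of the 45037 probe sets did. Since the members had been chosen on the same embryos, nothing is read from that share. The median log2 difference of the 6 was -0.37, against 0.04 over all probe sets, with 16 added to each intensity before log2. It was -0.60 against 0.08 with 1 added and -0.18 against 0.01 with 64 added, and -0.28 against 0.02 without the array labelled double mutant 1. A fit with limma was limited to the 14446 probe sets with a mean over 100 in either group, which 1 of the 6 passed, Phyh, with both of its group means above 100. After adjustment 0.0% of the tested probe sets were called, 0 by limma and 0 by the ordinary test of the same values, and 245 and 346 had an unadjusted p under 0.05. The submitters' criteria with limma's unadjusted p were met by 0.768% in the lower direction, Phyh among them. Phyh met them under every alternative run except the fit with the replicate number as a block, where its log2 difference was -0.95. Phyh had been chosen on the same embryos, so nothing is read from its meeting the criteria in these runs.

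**Figure D3:**
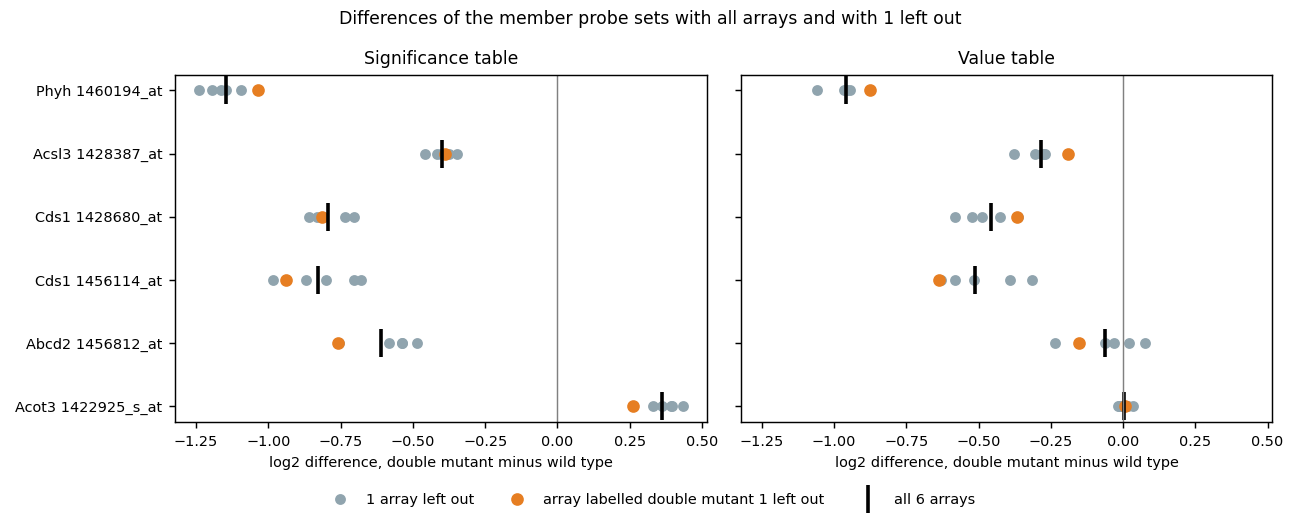
log2 difference, double mutant minus wild type, of the 6 probe sets in the significance table (left) and the value table (right), with all 6 arrays (black bars) and with 1 array left out (grey, or orange for the array labelled double mutant 1). Phyh stays between -1.24 and -1.04 on the left and between -1.06 and -0.88 on the right, while Abcd2 and Acot3 cross 0 on the right.

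The rest of the pathway was followed through 7 lists with 234 distinct genes. Of 40 genes of peroxisomal fatty acid oxidation and import, 3 are listed in the significance table, the members Phyh, Abcd2 and Acot3, with 2 lower and 1 higher. Of 37 acyl-CoA synthetases and thioesterases 2 are listed, Acsl3 and Acot3, and of 49 genes of phosphatidic acid and phospholipid synthesis 1, Cds1. Of 24 peroxisome biogenesis genes and of 30 genes of fatty acid synthesis, elongation and desaturation, 0 are listed. Of all probe sets, 0.924% are listed as lower and 1.43% as higher, so lists of this size can hold 0 without meaning. The genes found in the first 3 lists are the members, which were picked from this table. Nothing is therefore read from these counts. The other probe sets of the array carry no gene name in the sources used here, so unlisted genes, and further probe sets of the 5 members, were not analysed here.

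Beyond the members, Ppargc1a from the lists was higher in the double mutants and dim. It encodes a coactivator of nuclear receptors that turns on mitochondrial and fatty acid oxidation genes. Its probe set 1434099_at had means of 39.2 ± 9.1 in the double mutants and 17.6 ± 4.7 in wild type, and 1434100_x_at had 44.5 ± 11.2 and 24.2 ± 1.2 (SD, n = 3). Its remaining probe set, 1456395_at, had 15.5 ± 0.34 in the double mutants and 12.1 ± 0.82 in wild type, and in the value table its groups overlapped. The other 2 had separate groups in both tables. In the significance table the log2 differences of 1434099_at, 1434100_x_at and 1456395_at were 1.16, 0.85 and 0.36, and 1.1, 0.77 and 0.34 without the array labelled double mutant 1.

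The file's own annotation gave a wider view. Exactly 4 of the named genes carry a peroxisome term, Phyh, Acsl3, Abcd2 and Acot3, with 3 lower and 1 higher, so the members are the whole of that annotated set. Fatty acid processes are annotated for 9 named genes, with 4 lower and 5 higher, and their 12 probe sets had a median log2 difference of 0.36, against 0.38 over all listed. Besides Phyh and Acsl3, the lower ones included Adipor1, an adiponectin receptor gene, with means of 192.2 ± 9.1 in the double mutants and 318.9 ± 79.6 in wild type (SD, n = 3). In the value table the Adipor1 groups overlapped, at 38.8 to 57.4 in the double mutants and 47.2 to 106.5 in wild type. The higher ones, besides Acot3 and Ppargc1a, were Irs1, Thbs1 and Tlr4, of which Irs1, encoding a docking protein of the insulin receptor, had 1495 ± 298 in the double mutants and 730.4 ± 103.3 in wild type. The log2 difference was -0.70 for Adipor1 and 1.02 for Irs1, and -0.66 and 0.88 without the array labelled double mutant 1. Members annotated to fatty acid processes were therefore listed in both directions.

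**Figure D4:**
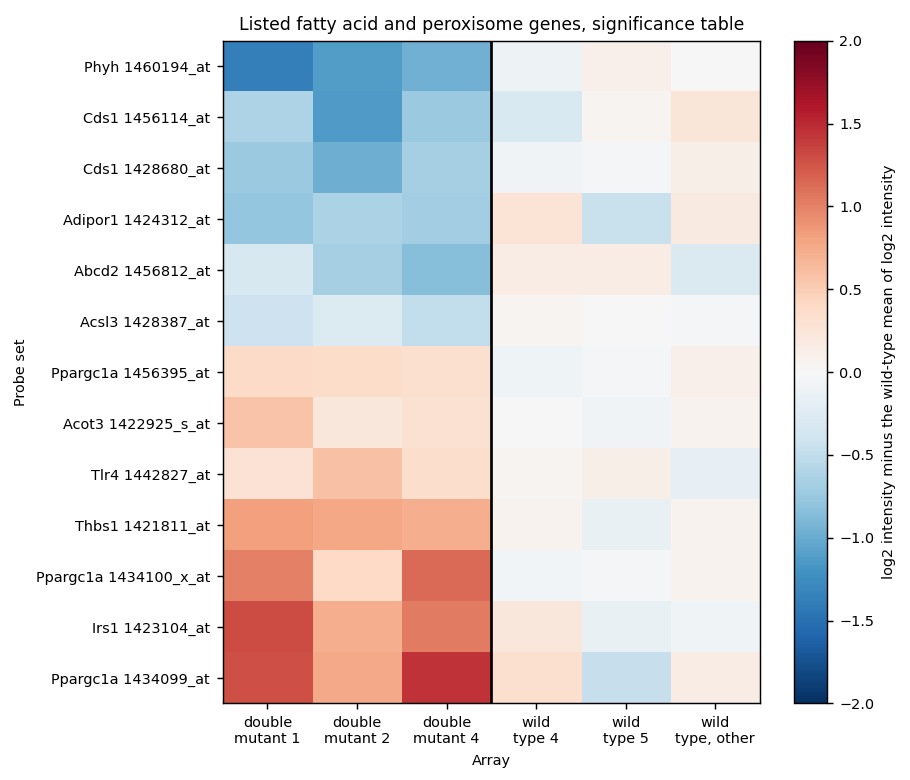
log2 intensity of each column minus the wild-type mean of log2 intensity in the significance table, for the probe sets of the 5 genes and of Ppargc1a, Adipor1, Irs1, Thbs1 and Tlr4, with double-mutant columns left of the line and wild-type columns right of it. Blue is lower and red higher than the wild-type mean. Phyh, Acsl3, both Cds1 probe sets, Abcd2 and Adipor1 are lower in all 3 double-mutant columns, and the other genes shown are higher. That separation follows from how the significance table was made.

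For each member, by its brightest probe set, the genes with the closest profile were sought by the root-mean-square difference of centred log2 intensity over the 6 columns, among the named probe sets of other genes in the significance table. Closest to Phyh were Hist1h4j at 0.137 and Slc35f2 at 0.142, and to Cds1 1428680_at Glcci1 at 0.11 and 4932441J04Rik at 0.131. Closest to Acsl3 were Ube2r2 at 0.036 and Sema3e at 0.043, to Abcd2 Atp8a1 probe set 1433965_at at 0.085 and DXErtd223e at 0.086, and to Acot3 Arg1 at 0.035 and 8030451A03Rik at 0.045. None of these 10 genes is a member. The smaller distances belong to the members with the smaller differences, whose profiles are flatter.

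Markers of neighbouring cell types differed in the same arrays. Of 10 Schwann cell precursor markers, 4 are listed, Sox10, Ngfr, Erbb3 and Foxd3, all higher, where 1.43% of all probe sets are listed as higher. Their 5 probe sets summed to between 605.2 and 687.4 in the double mutants, against 284.9 to 314.5 in wild type. That separation follows from their listing on the same comparison. Ngfr 1454903_at was the brightest of them and alone met the submitters' criteria. Its means were 414.2 ± 77.0 in the double mutants and 190.6 ± 14.7 in wild type (SD, n = 3). Sox10 had a value-table mean of 13.3 ± 9.7 in the double mutants and 0.567 ± 0.208 in wild type (SD, n = 3), and was near the floor of the scale in wild type arrays. Its log2 difference in the significance table was 1.44, and 1.04 without the array labelled double mutant 1. Of 12 neuronal markers 1 is listed, Nefm, and of 10 head muscle markers 1, Msc, both higher, while of the 12 epithelial, 12 endothelial and 12 blood markers 0 are listed. The part of these cells in the differences of the 5 genes was not tested.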

How the data were processed

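Total RNA from laser-cut tissue was amplified with the Ovation system and put on 1-colour Affymetrix arrays of the mouse genome, per the labels' protocols. The deposited value table holds a linear intensity per probe set and array, scaled to a trimmed mean of 150. RMA is named, with no role, per the submitters' processing notes, and the summarisation method was not given in the sources used here. The significance table gives p-values of an unpaired test without correction and an absolute fold, per the file headers. Recomputing them from log2 of its 6 deposited intensity columns matched to within 5.14e-07 and 1.63e-06. Its other 6 per-array columns, called normalised, were not used. A wild-type column with a number that no title holds was kept as an unnumbered wild-type array, so the tables were not paired array by array. The tables are on different scales and were never combined.

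Gene names came from the significance table, of which 928 probe sets have 1 symbol, 15 several and 118 none; 854 of the 928 were found by gene identifier in RefSeq. In the value table, 16 was added before log2, which understates differences of dim probe sets, and lmFit and eBayes of limma 3.58.1 (R 4.3.3) were run with group alone, Benjamini-Hochberg adjustment, and no control probe sets. The fit was tested on simulated data. Differences in the significance table are of log2 intensity with nothing added. Python 3.11.15, numpy 2.4.6, pandas 2.3.3, scipy 1.17.1 and matplotlib 3.10.9 were used otherwise. Named genes are the 5 members with every probe set, the named genes of the pathway and marker lists, the 2 closest profiles per member, and Lhx8; genes grouped by the file's annotation were chosen after their values were seen. Some genes these rules take are not reported here. The members, lists and tests were chosen with earlier results of these data known. With 3 arrays in each group, no exact permutation test was run, since its p could not fall below 0.1. The labels speak of separate embryos, and p-values measure the spread between these. Alternatives changed the added constant, normalisation, filter, weights, block and test, and left out each array.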

Additional observations from a re-analysis of the deposited data

How the results depend on the processing

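Every alternative kept the direction of the 6 probe sets in the significance table, and of Phyh, Acsl3 and Cds1 in the value table. For all of these the groups do not overlap, so of the alternatives only the changes of normalisation could have reversed the direction. Leaving out 1 array could not. Abcd2 in the value table turned to 0.014 with arrays brought to a common median, 0.021 without double mutant 2 and 0.075 without wild type 5, with a range of -0.24 to 0.075 when 1 array was left out. Acot3 there turned to -0.0055 with quantile normalisation, -0.014 without double mutant 2, -0.0080 without wild type 1 and -0.017 without wild type 5, with a range of -0.017 to 0.035 when 1 array was left out, all near the floor. The constant added before log2 sets the size for dim probe sets: with 1 and 64 added, Cds1 1428680_at was at -0.85 and -0.19, 1456114_at at -1.04 and -0.20, and the median of the 6 members, an alternative tried after seeing the data, at -0.60 and -0.18, against -0.28 without double mutant 1. In the significance table that median was -0.79 without double mutant 1.

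The 2 member probe sets meeting the submitters' criteria became 4 with an intensity over 50 and 1, Phyh, over 200, thresholds tried after seeing the data at which 367 and 181 of the 1061 listed probe sets met them, and ranged from 1 to 2 with 1 column left out (1 without the unnumbered wild type). Over the significance table the 261 probe sets became 118 to 201 with 1 column left out, at 151 without double mutant 1, 161 without double mutant 4, 142 without wild type 4, 118 without wild type 5 and 135 without the unnumbered one. In the value table the 235 that met the criteria became 661 with array weights, 135 by the methods' t-test, 372 over an intensity of 50 and 133 over 200. With 1 array left out they ranged from 80 to 659, at 506 without double mutant 2, 659 without double mutant 4, 113 without wild type 1, 106 without wild type 4 and 80 without wild type 5. The 0 called after adjustment became 1619 with array weights, and 0 to 9 with 1 array left out (9 without double mutant 1, 2 without double mutant 4). The fit of the array weights stopped before it converged. It gave double mutants 1, 2 and 4 weights of 0.0375, 19.98 and 0.229, and wild types 1, 4 and 5 weights of 1.75, 2.78 and 1.20. The double-mutant side of that fit thus rested almost wholly on double mutant 2. The cause of these changes in the counts was not tested.

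The groups share the replicate numbers 1 and 4, whose deviations from the group means correlated at 0.065 and -0.079, so the numbers were not taken as pairs. The fit with a replicate block drew the group difference from those 4 arrays and gave 2 calls after adjustment and 473 probe sets meeting the criteria, with Abcd2 at 0.16 and Acot3 at -0.034. Phyh, at -0.95, no longer met the criteria in that fit. Dim probe sets, among the members those of Cds1, Abcd2 and Acot3, are limited by signal over background. All values are limited by the number of arrays.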

Other observations

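Genes that the file annotates to lipid processes, a group chosen after the values were seen, were also listed in both directions. Of 22 named genes, 8 were lower, 13 higher and 1, Atp8a1, had probe sets in both directions, and the median log2 difference of the 29 probe sets was 0.36, against 0.38 over all listed. Vldlr, which encodes a receptor that takes up lipoproteins, had means of 269.7 ± 42.5 in the double mutants and 132.5 ± 38.7 in wild type for its probe set 1442169_at (SD, n = 3). Its probe set 1438258_at differed less, with 159 ± 16.6 in the double mutants and 117.6 ± 11.7 in wild type, and did not meet the submitters' criteria. Lrp1, a related scavenger receptor gene, had 882.4 ± 86.2 and 616.2 ± 45.7.

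Nrip1, which encodes a corepressor of nuclear receptors known to restrain fat oxidation genes, was the brightest of the annotated genes, at 2656 ± 291 in the double mutants and 1557 ± 271 in wild type (SD, n = 3), and its groups were separate in both tables. Mttp, which encodes a protein that loads lipid onto lipoproteins, had 146.6 ± 34.2 in the double mutants and 216.5 ± 23.9 in wild type. Lclat1, which encodes an acyltransferase that remodels cardiolipin, a lipid made from CDP-diacylglycerol, had 426.9 ± 37.6 in the double mutants and 533.5 ± 39.4 in wild type. The groups of Mttp and Lclat1 overlapped in the value table. Without the array labelled double mutant 1, the log2 difference of Vldlr was 0.93 for 1442169_at (1.05 with all arrays) and 0.42 for 1438258_at (0.43). It was 0.46 for Lrp1 (0.52), 0.69 for Nrip1 (0.78), -0.51 for Mttp (-0.58) and -0.29 for Lclat1 (-0.32).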
